A study of Homo sapiens with 15 samples.

Results

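The genes described are 9 that build, cross-link or pull on actin filaments: the actins ACTB and ACTG1, the cross-linkers FLNA, ACTN1 and ACTN4, the filament-bound proteins TAGLN, TPM1 and TPM4, and the motor heavy chain MYH9. They were picked by symbol, 9 of the 69215 genes in the count tables, with earlier results of these data known. All 9 were among the 12769 genes that passed a filter on low counts. RNA had been sequenced from Caco-2, a human colorectal adenocarcinoma cell line whose monolayers resemble enterocytes, in 5 libraries of cells left unexposed (control), 5 after polysorbate 20 (PS20) and 5 after polysorbate 80 (PS80). Both emulsifiers were given for 24 h at 0.05%, so dose and time are matched, and no other treatment or genetic change is named for any group. The compounds share a polyoxyethylene sorbitan head group and differ in the fatty acid bound to it, laurate in PS20 and oleate in PS80. Nothing in the labels says that the 5 libraries of a group came from separate cultures, so p-values measure only the spread between these libraries, which may be technical.

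Non-muscle actin forms the filaments under the cell membrane, in microvilli and along cell junctions. Filamin and alpha-actinin tie these filaments into networks and bundles, tropomyosin and transgelin lie along them, and non-muscle myosin II slides them against each other. In gut epithelium a ring of actin and myosin II at the height of the tight junctions sets tension on those junctions. Many genes of this machinery carry a CArG box, the short sequence bound by serum response factor (SRF), whose cofactors of the MRTF family are held by unpolymerised actin.

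With PS80, both actins and all 3 cross-linkers were higher than in control, while TPM1 was lower. With PS20, TAGLN, both tropomyosins and FLNA were lower than in control. Between the emulsifiers, 8 of the 9 genes were higher with PS80 than with PS20, from 1.17-fold for ACTN1 to 2.56-fold for TAGLN. Of all tested genes, 18.0% were higher in that comparison and 35.2% changed in either direction. MYH9 did not pass the test in any comparison. Levels are CPM (read counts relative to the scaled library size), errors of levels are SD over 5 libraries, and calls come from edgeR's quasi-likelihood test at an adjusted p of 0.05. In bulk RNA, fewer cells expressing a gene and less of its RNA per cell cannot be told apart.

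Depth was 4183096 to 42271053 counts per library, with a median of 8829612, so each member rested on at least 345 reads in every library. Normalisation factors lay between 0.978 and 1.02. The log2 ratio of control libraries 1 and 2 to control libraries 3 to 5 was -0.72 for TAGLN, -0.36 for FLNA, -0.34 for ACTB and -0.23 for TPM4. The same ratio for TAGLN was -0.13 within PS20 and -0.21 within PS80. The labels name no batch for those libraries. Pseudogenes named after a member held few counts, at most 0.793% of the gene's own (ACTG1). Of 36 distinct exon lengths of ACTN4, 33 recur in a scaffold gene at 0 counts, and so do all 38 of CTTN and all 29 of ZYX, so the counts of these 3 genes are uncertain.

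Promoter sequences are shown for the members that hold a CArG box, because SRF is the factor most closely tied to actin genes. RefSeq promoters (GRCh38.p14), from 250 bases before the start to 50 after it, were supplied for 7 of the 9 genes. The 250 bases before the start hold a CArG box in its strict form (10 bases, searched on both strands) in ACTG1, FLNA and TPM4. ACTN1, ACTN4, TPM1 and MYH9 had no match in that window. Each line below runs 5′ to 3′ on the gene's strand, with the box in capitals and 10 bases on either side.
ACTG1, chr17:81512874-81512903, minus strand: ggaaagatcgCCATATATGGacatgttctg
FLNA, chrX:154374709-154374738, minus strand: ggcaattttaCCAATTAAGGctttctcgcc
TPM4, chr19:16067355-16067384, plus strand: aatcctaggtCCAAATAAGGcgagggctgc
In ACTG1 and in FLNA the box lies 94 to 85 bases before the RefSeq start, and in TPM4 it lies 173 to 164 bases before it. The counted gene models of ACTG1 and TPM4 extend upstream of that start, so their boxes lie inside the gene spans given below. The FLNA box lies outside its span. The same search found a box in 312 of all 27305 promoters (1.14%) and in 94 of 9902 promoters of tested genes (0.949%). Among 101 promoters of other actin pathway genes, 10 held one (9.90%). That set includes SRF itself and genes picked as SRF or MRTF targets, so its share was partly set by the choice of genes. The match is a description of the sequence, and binding was not measured.

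The actins were the most abundant members, and both were higher with PS80. ACTB (ENSG00000075624.17, chr7:5526409-5563902), the beta actin of the cell cortex, was at 5029.1, 5090.6, 6396.3, 6433.7 and 6400.2 CPM in control libraries 1 to 5. It was at 5424.9, 5141.4, 5334.2, 5059.8 and 5653.6 CPM with PS20 and at 7801.1, 8179.6, 7460.2, 7279.6 and 7613.8 CPM with PS80. Every PS80 library lay above all 10 others, while the PS20 libraries lay near the lower pair of controls and below the upper 3. ACTB rose 1.31-fold with PS80 over control (log2 fold change 0.39 ± 0.065 SE, adjusted p = 8.33e-05) and stood 1.44-fold above PS20 (adjusted p = 1.19e-06). Against control, the PS20 value of -0.14 on the log2 scale did not pass (adjusted p = 0.0773). Its sign rested on which libraries were used: it was -0.26 (adjusted p = 7.87e-08) over libraries 3 to 5 of each group and 0.06 (adjusted p = 0.673) over libraries 1 and 2, and it passed without control replicate 1 (adjusted p = 0.01) or 2 (0.0141).

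ACTG1 (ENSG00000184009.13, chr17:81509413-81523847), the gamma actin of the cytoplasm, had the steadiest controls of the pair. Its control libraries read 1387.9, 1289.2, 1451.2, 1443.7 and 1394.7 CPM. The PS20 libraries read 1588.2, 1440.0, 1432.9, 1428.3 and 1512.4 CPM, and the PS80 libraries 2291.5, 2195.9, 1998.9, 2037.8 and 2111.2 CPM. Control and PS20 overlapped, and PS80 lay above both without overlap. ACTG1 rose 1.53-fold with PS80 (log2 0.61 ± 0.050, adjusted p = 3.92e-09), the largest rise over control among the 9 genes. The PS20 difference of 0.09 did not pass (adjusted p = 0.151, 95% interval -0.01 to 0.19). Its PS80 call held in all 20 alternative analyses, with log2 values between 0.52 and 0.75.

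**Figure D1:**
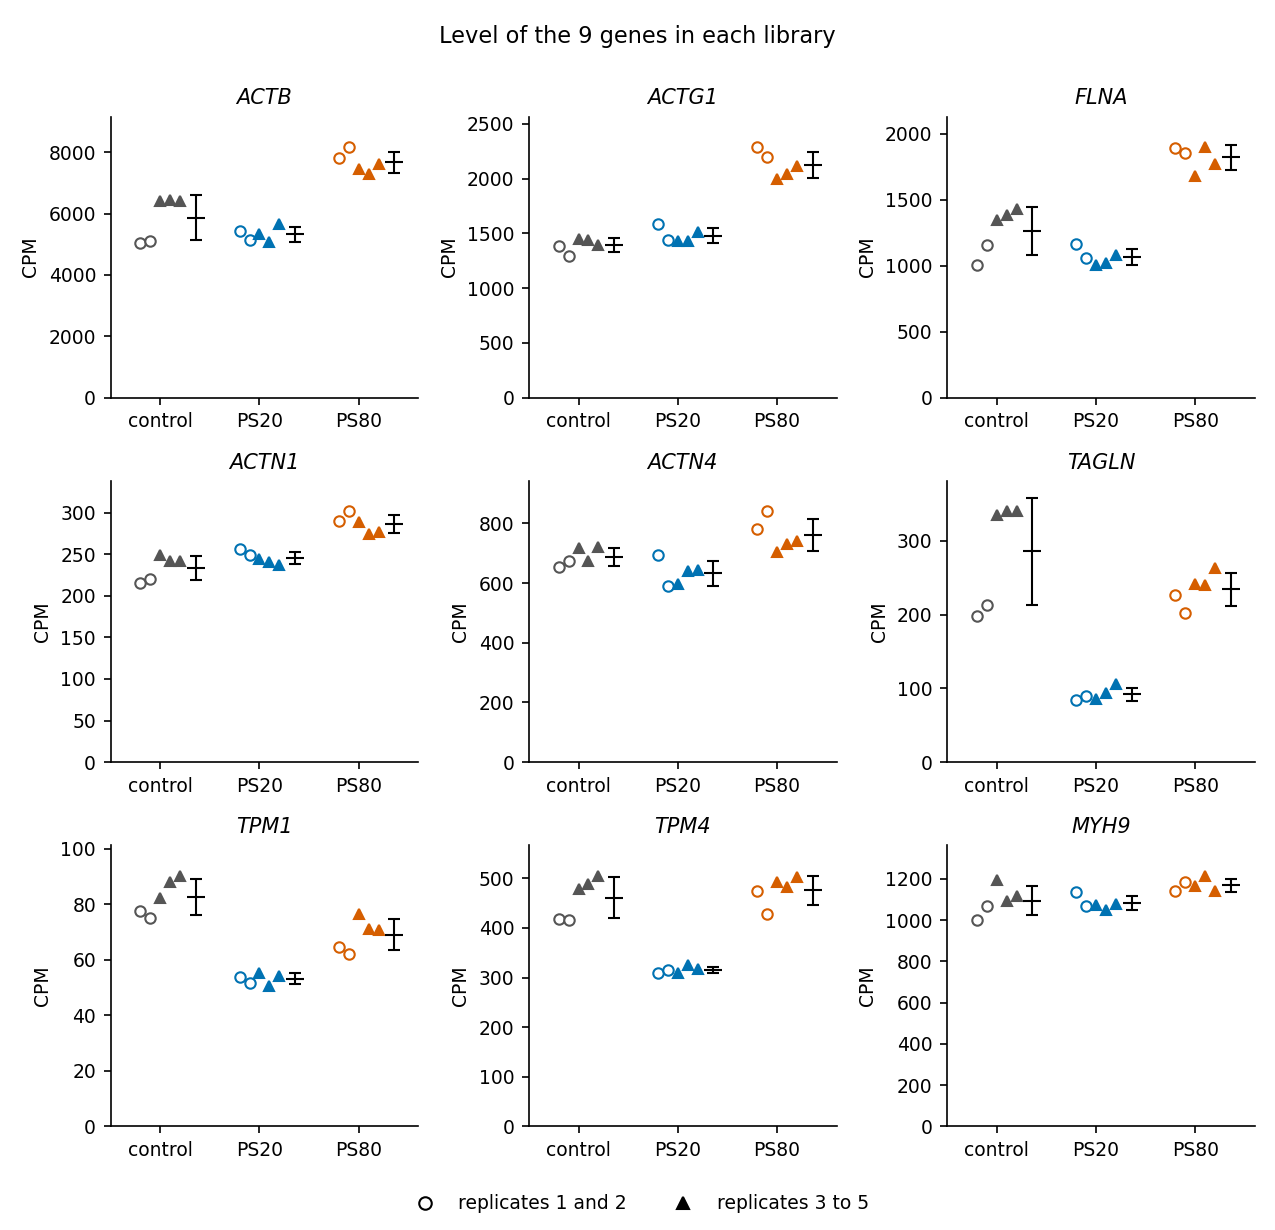
Level of each of the 9 genes in CPM (linear axis from 0) in every library, by group, with circles for replicates 1 and 2, triangles for replicates 3 to 5, and a bar for mean ± SD over 5 libraries. PS80 lies above control and PS20 for ACTB, ACTG1, FLNA and ACTN1, PS20 lies below both other groups for TAGLN, TPM1 and TPM4, and control circles sit low for TAGLN, ACTB and FLNA.

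Of the 3 cross-linkers, FLNA moved most. FLNA (ENSG00000196924.19, chrX:154348524-154374634) encodes filamin A, which joins filaments at wide angles and anchors them to membrane receptors. In control it read 1002.7, 1154.4, 1346.1, 1385.0 and 1433.8 CPM. With PS20 it read 1166.4, 1056.4, 1007.4, 1019.6 and 1084.5 CPM, and with PS80 1895.7, 1851.7, 1683.9, 1902.6 and 1771.9 CPM. The 5 PS80 values were the 5 highest of the 15, and the PS20 values lay inside the control range, in its lower part. FLNA was 1.44-fold higher with PS80 than in control (log2 0.53 ± 0.075, adjusted p = 2.38e-05) and 1.71-fold higher than with PS20 (log2 0.77, adjusted p = 1.49e-07). Its PS20 level was 1.19-fold lower than control (log2 -0.25, adjusted p = 0.0102). That fall rested on libraries 3 to 5, since libraries 1 and 2 alone gave 0.04 (adjusted p = 0.81). With the replicate number as a block it did not pass (adjusted p = 0.0505).

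ACTN1 and ACTN4 encode the non-muscle alpha-actinins, which bundle filaments in parallel arrays. ACTN1 (ENSG00000072110.16, chr14:68874128-68979440) read 215.5, 220.0, 248.8, 241.7 and 242.0 CPM in control. It read 256.2, 249.0, 244.0, 240.8 and 236.8 CPM with PS20 and 290.7, 302.1, 289.3, 274.2 and 277.5 CPM with PS80. Again PS80 was separate from both other groups, at 1.23-fold over control (log2 0.30 ± 0.049, adjusted p = 5.62e-05) and 1.17-fold over PS20 (adjusted p = 0.000734). Over libraries 1 and 2 alone the difference between PS80 and PS20, 0.23, did not pass (adjusted p = 0.0983). The PS20 difference from control, 0.07, did not pass (adjusted p = 0.244). ACTN4 (ENSG00000130402.14, chr19:38647649-38731589) read 653.0, 672.9, 717.9, 674.6 and 722.2 CPM in control. Its PS20 libraries read 694.2, 591.4, 595.5, 641.6 and 642.3 CPM and its PS80 libraries 781.3, 841.0, 704.2, 732.3 and 741.9 CPM. PS80 replicate 3 lay inside the control range and PS20 replicate 1 did too, so only the emulsifiers were fully separate from each other. ACTN4 was 1.2-fold higher with PS80 than with PS20 (log2 0.27, adjusted p = 0.000438). The counts of ACTN4 are uncertain, since most of its exon lengths recur in a scaffold gene. Its PS20 difference from control, -0.12, did not pass (adjusted p = 0.0671), but it did without control replicate 1 (0.0374) or PS20 replicate 1 (0.0219). Its rise over control was small (log2 0.14 ± 0.054, adjusted p = 0.0401) and was lost in 8 of 20 alternatives, among them those without control replicate 1 (adjusted p = 0.112), 2 (0.0688) or 4 (0.0856) and without PS80 replicate 1 (0.0791), 2 (0.127) or 5 (0.0588).

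TAGLN showed the largest differences of the 9 genes. It encodes transgelin, also called SM22, a small actin-bundling protein that is abundant in smooth muscle and present in many cultured cells. TAGLN (ENSG00000149591.17, chr11:117199370-117207464) read 198.5, 213.2, 335.7, 340.2 and 340.3 CPM in control. It read 84.1, 89.1, 85.0, 94.0 and 106.1 CPM with PS20 and 226.2, 202.1, 241.3, 240.1 and 262.9 CPM with PS80. All PS20 libraries lay far below every other library, and the control libraries split into a low pair (1 and 2) and 3 high libraries. TAGLN fell 3.12-fold with PS20 (log2 -1.64 ± 0.160, 95% interval -1.99 to -1.30, adjusted p = 2.46e-06) and was 2.56-fold higher with PS80 than with PS20 (log2 1.36, adjusted p = 2.89e-05). PS80 did not differ from control by the test (log2 -0.29, 95% interval -0.62 to 0.04, adjusted p = 0.171). That value depended on which libraries were used: it was -0.45 (adjusted p = 2.52e-07) over libraries 3 to 5, 0.05 (adjusted p = 0.769) over libraries 1 and 2, and -0.40 (adjusted p = 0.03) without control replicate 1. The fall with PS20 passed in all 19 alternatives, between -1.85 and -1.25. Exons of other genes, chiefly of PCSK7 on the opposite strand, cover 47.8% of the exonic bases of TAGLN, and counting used no strand. PCSK7 itself was -0.26 on the log2 scale with PS20 (adjusted p = 0.00397).

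The 2 tropomyosins fell together with PS20 and parted with PS80. TPM1 (ENSG00000140416.24, chr15:63042632-63071915) read 77.6, 75.0, 82.4, 87.9 and 90.4 CPM in control, 54.0, 51.7, 55.2, 50.6 and 54.3 CPM with PS20 and 64.7, 62.2, 76.5, 71.2 and 70.8 CPM with PS80. The PS80 libraries thus lay between the others, 1 of them inside the control range and none inside the PS20 range. TPM1 was 1.56-fold lower with PS20 than in control (log2 -0.64 ± 0.069, adjusted p = 4.41e-08) and 1.2-fold lower with PS80 (log2 -0.27, adjusted p = 0.00317). It was 1.29-fold higher with PS80 than with PS20 (log2 0.37, adjusted p = 0.000142), which did not pass over libraries 1 and 2 alone (0.27, adjusted p = 0.12). With libraries 1 and 2 alone the PS80 fall kept its size (-0.27) without passing (adjusted p = 0.0929). An antisense gene and another model share 24.1% of its exonic bases.

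TPM4 (ENSG00000167460.17, chr19:16067021-16103002) encodes a short tropomyosin of non-muscle cells. It read 417.8, 416.4, 478.0, 488.0 and 505.5 CPM in control, 309.3, 315.1, 309.6, 325.7 and 316.6 CPM with PS20 and 474.6, 427.9, 491.5, 482.2 and 501.7 CPM with PS80. Control and PS80 covered the same range, and PS20 formed a tight group well below both. TPM4 was 1.46-fold lower with PS20 (log2 -0.55 ± 0.056, adjusted p = 1.99e-08) and 1.51-fold higher with PS80 than with PS20 (log2 0.59, adjusted p = 1.87e-08). Its PS80 difference from control was 0.04 (95% interval -0.07 to 0.16, adjusted p = 0.587).

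MYH9 (ENSG00000100345.23, chr22:36281280-36388010), the heavy chain of non-muscle myosin IIA, changed least. It read 1001.6, 1068.7, 1195.0, 1091.5 and 1114.5 CPM in control, 1137.6, 1067.0, 1075.3, 1048.5 and 1080.2 CPM with PS20 and 1142.5, 1183.5, 1165.7, 1215.9 and 1139.0 CPM with PS80. The 5 PS80 libraries lay just above the 5 PS20 libraries, and the control range spanned most of both. Its log2 differences were -0.02 for PS20 against control (95% interval -0.11 to 0.08, adjusted p = 0.798), 0.10 for PS80 against control (interval -0.00105 to 0.19, adjusted p = 0.121) and 0.11 for PS80 against PS20 (interval 0.02 to 0.21, adjusted p = 0.0649). The last passed in 5 of 20 alternatives, DESeq2 (adjusted p = 0.0257) and the analysis without PS20 replicate 1 (0.0433) among them.

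**Figure D2:**
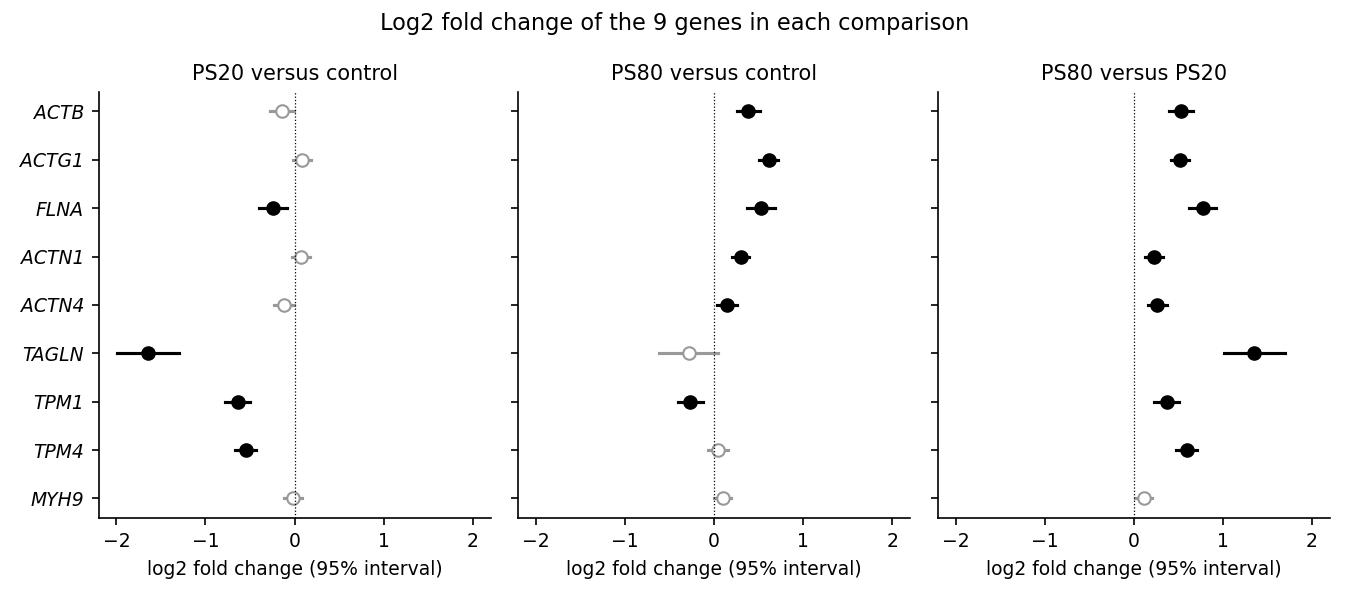
Log2 fold change of each gene with its 95% interval in the 3 comparisons, filled where the adjusted p was under 0.05 and open where not. TAGLN at -1.64 is the lowest value with PS20, ACTG1 at 0.61 the highest with PS80 over control, and all 9 values lie above 0 for PS80 against PS20.

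Counted together, 4 of the 9 genes were lower with PS20 than in control by edgeR, where 23.9% of all tested genes were lower, 24.3% higher and 48.2% changed in either direction. None of the 9 was higher, also at an unadjusted p under 0.05 (0 genes) or by DESeq2 (0 genes). In 3 of the 9 (TAGLN, TPM1 and TPM4) all PS20 libraries lay below all control libraries, as they did in 16.3% of tested genes, and in none did they lie above (16.2% of tested genes). The median log2 fold change of the 9 was -0.14 and that of all tested genes 0.0105. The 9 were chosen with earlier results of these data known, so these counts and those of the next paragraph are descriptions only.

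With PS80, 5 of the 9 genes rose over control and 1 fell, where 17.2% of tested genes rose, 16.0% fell and 33.2% changed either way. Groups were separate and higher for 4 of the 9 (ACTB, ACTG1, FLNA and ACTN1), against 10.3% of tested genes, and separate and lower for none (9.30%). The median was 0.14 against 0.0017 over all genes. Between the emulsifiers 8 of the 9 were higher with PS80, against 18.0% of tested genes (35.2% in either direction), and groups were separate and higher for all 9, against 11.7% higher and 11.0% lower over tested genes. None was lower by edgeR, at an unadjusted p under 0.05 (0 genes) or by DESeq2 (0 genes). The median was 0.52 against -0.00209 over all genes. The comparisons share libraries: both exposures were set against the same controls, and the last comparison reuses both exposed groups. In 4 of the 5 PS80 libraries counts were made with version 2.0.3 of the counting program and elsewhere with 2.0.0. PS80 replicate 2, the deepest library, was the 1 PS80 library counted as the controls were. In it ACTB, ACTG1, FLNA, ACTN1 and ACTN4 lay above every control library and TPM1 below every one. It also held the highest PS80 values of ACTB, ACTN1 and ACTN4. As the only PS80 library it put TPM1 0.23 above PS20 on the log2 scale. A single library cannot show the spread of its group.

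Per kilobase of exon, the order of the 9 levels was nearly the same in every group. Control means were 1332.6 CPM per kb for ACTB, 343.9 for ACTG1, 116.4 for FLNA, 112.3 for ACTN4, 64.2 for MYH9, 43.6 for TAGLN, 37.3 for TPM4, 16.3 for ACTN1 and 6.01 for TPM1. FLNA and ACTN4 were neighbours whose control values differed by less than their spread, and so were TAGLN and TPM4. With PS20, TAGLN dropped to 14.0 CPM per kb, below ACTN1 at 17.1. Lengths are unions of all annotated exons, which makes genes with many isoforms, such as the tropomyosins, look lower. The 9 genes together took 1.14% of counts in control (1.01% to 1.23%), 1.03% with PS20 (0.989% to 1.07%) and 1.44% with PS80 (1.40% to 1.49%).

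Ratios between related genes within a library show which partner moved more, whatever the library scaling. In 6 ratios over 3 comparisons (18 exact two-sided permutation tests, adjusted in a family of 21, smallest possible p 0.00794), 10 passed. ACTG1 over ACTB was 0.300, 0.275, 0.247, 0.244 and 0.237 in control, with a geometric mean of 0.260, against 0.302 with PS20 and 0.301 with PS80 (exact permutation test, adjusted p = 0.0417 each). Control library 1 lay inside the range of the exposed libraries and the other 4 controls lay below it. ACTN1 over ACTN4 was 0.145 in control, 0.166 under PS20 and 0.162 under PS80, with no overlap of exposed and control libraries (exact permutation test, adjusted p = 0.0185 each). Relative to ACTN4, ACTN1 was therefore higher under both emulsifiers.

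TAGLN over TAGLN2, its broadly expressed relative, fell from 0.164 to 0.0933 with PS20 and was 0.157 with PS80 (exact permutation test, adjusted p = 0.0185 and 0.526). TPM1 over TPM4 was 0.161 in control and 0.152 with PS20 (adjusted p = 0.0667), and fell to 0.130 with PS80 (adjusted p = 0.0185, exact permutation test). MYH9 over MYH10, the heavy chain of myosin IIB, rose from 11.7 to 14.3 with PS20 and stood at 11.7 with PS80 (exact permutation test, adjusted p = 0.0185 and 0.960). With PS20 it was MYH10 that moved, lower than control by edgeR (log2 -0.31, adjusted p = 0.000196), while MYH9 was at -0.02. Between the emulsifiers, TAGLN over TAGLN2, MYH9 over MYH10 (exact permutation test, adjusted p = 0.0185 each) and TPM1 over TPM4 (0.0333) differed. MYH9 over MYH14, the third non-muscle chain, did not pass in any comparison, but the test took no account of replicate number. Libraries 1 and 2 read 2.92 and 2.93 in control, 2.29 and 2.40 with PS20 and 2.65 and 2.58 with PS80. Libraries 3 to 5 read 4.16, 4.04 and 3.91 in control, 2.87, 2.81 and 3.02 with PS20 and 3.33, 3.47 and 3.42 with PS80. By edgeR, MYH14 was higher than control with PS20 (log2 0.40, adjusted p = 0.0143) and did not pass with PS80 (0.31, adjusted p = 0.0590).

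**Figure D3:**
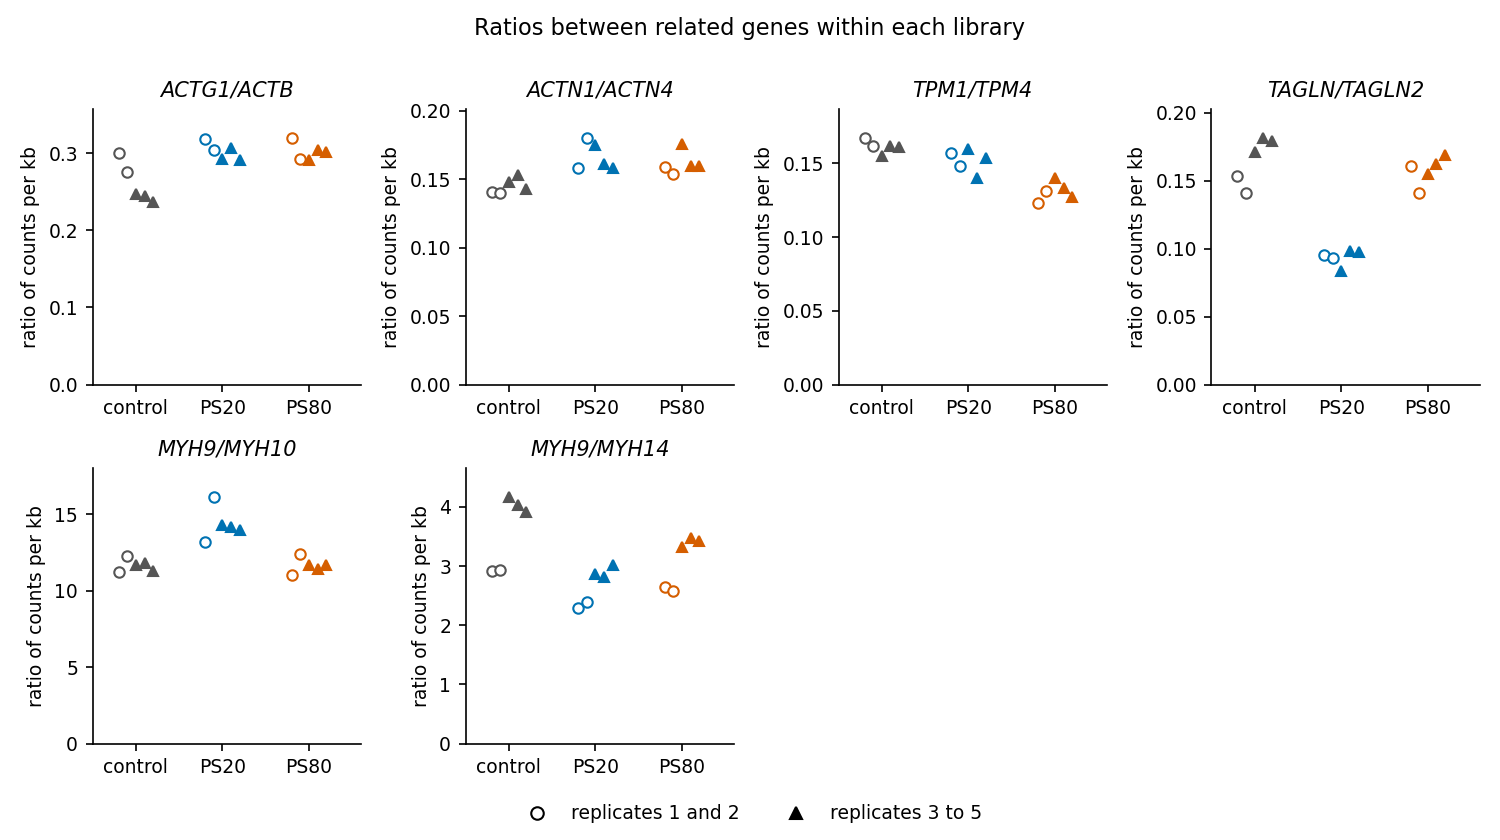
Ratio of counts per kilobase between related genes in every library (linear axes from 0), with circles for replicates 1 and 2 and triangles for replicates 3 to 5. TAGLN/TAGLN2 is lowest with PS20, TPM1/TPM4 is lowest with PS80, and for MYH9/MYH14 the circles lie below the triangles in every group.

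The wider pathway was read from 7 lists with 112 other genes, of which 100 were tested. With PS20, 14 were higher and 37 lower than control (14.0% and 37.0%), where 24.3% and 23.9% of all tested genes were. With PS80, 26 were higher and 12 lower than control (26.0% and 12.0%, against 17.2% and 16.0% of all genes). Between the emulsifiers 48 were higher and 5 lower with PS80 (48.0% and 5%, against 18.0% and 17.2%). The counts of each list below are to be read against the same shares of all genes. The lists too were chosen with earlier results of these data known, so their counts are descriptions only. The medians of log2 fold change were -0.08, 0.06 and 0.15, beside 0.0105, 0.0017 and -0.00209 over all tested genes.

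Among 8 other tested tropomyosins, transgelins and calponins, 4 were lower with PS20 and, by edgeR, at an unadjusted p under 0.05 and by DESeq2, 0 were higher. TAGLN2 fell from 591.6 to 338.8 CPM (log2 -0.80, adjusted p = 2.41e-06), CALD1, the filament-binding caldesmon, from 320.1 to 218.2 CPM (log2 -0.55, adjusted p = 3.12e-08) and TPM3 from 744.8 to 579.8 CPM (log2 -0.36, adjusted p = 2.04e-06). In all 3, as in TPM1 and TPM4, every PS20 library lay below every control. With PS80, CNN2, a calponin, rose (log2 0.41, adjusted p = 1.25e-05), and CALD1 (-0.18, adjusted p = 0.018) and CNN3 (-0.24, adjusted p = 0.0325) fell. The CALD1 fall was lost without control replicate 4 (adjusted p = 0.0556) or 5 (0.0511) or PS80 replicate 2 (0.0531), and over libraries 1 and 2 (0.312). That of CNN3 was lost without control replicate 3 (0.0703), 4 (0.0896) or 5 (0.0859) or PS80 replicate 1 (0.0828) or 2 (0.0806). Between the emulsifiers 5 of the 8 were higher with PS80 (62.5%, beside 18.0% of all genes). Among them were TPM3 (0.35, adjusted p = 7.39e-06), CALD1 (0.37, adjusted p = 1.92e-05) and CNN2 (0.34, adjusted p = 9.99e-05).

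Among 10 other tested filamins, actinins and cross-linkers, 3 were higher and 2 lower with PS20 (30% and 20%, near the shares of all genes), and 6 higher and 1 lower with PS80 (60% and 10%). FLNC, the filamin of muscle, was an exception to the order of the members: it stood at 261.1 CPM in control, 776.1 with PS20 (log2 1.57, adjusted p = 5.76e-07) and 463.2 with PS80 (0.83, adjusted p = 0.000402). FLNC was therefore lower with PS80 than with PS20 (-0.74, adjusted p = 0.000699), where FLNA was higher. PLS3, a fimbrin-type bundler, fell with PS20 (-0.25, adjusted p = 0.000167), and PLS1, the fimbrin of microvilli, rose with PS80 (0.35, adjusted p = 0.000553). PLS1 (0.26, adjusted p = 0.00569) and PALLD, the scaffold palladin (0.44, adjusted p = 0.00493), were also higher with PS80 than with PS20, though not over libraries 1 and 2 alone (0.13, adjusted p = 0.464, and 0.14, adjusted p = 0.571). Of 7 other actins and actin-related genes 3 were tested. ACTG2, enteric gamma actin, fell from 3.09 to 1.20 CPM with PS20 (-1.38, adjusted p = 0.000436), and ACTG2 (0.88, adjusted p = 0.0202) and ACTR1B (0.24, adjusted p = 0.0301) were higher with PS80 than with PS20. Those last calls were lost for ACTG2 without PS20 replicate 1 (adjusted p = 0.0501) or 4 (0.0617) or PS80 replicate 5 (0.0645), and for ACTR1B without PS20 replicate 3 (0.0969) or 5 (0.058) or PS80 replicate 1 (0.0761) or 2 (0.0916).

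Among 19 tested myosin II chains and regulators other than MYH9, 8 were lower and 3 higher with PS20. These are 42.1% and 15.8%, beside 23.9% and 24.3% of all genes. MYL9, the regulatory light chain that pairs with MYH9 and MYH10, fell from 477.3 to 282.9 CPM (log2 -0.75, adjusted p = 2.24e-10), and MYL6, the essential light chain, fell from 448.8 to 334.1 CPM (-0.43, adjusted p = 1.91e-07). RHOB, a small GTPase upstream of contraction, rose with PS20 from 33.3 to 56.5 CPM (0.77, adjusted p = 5.71e-09) and less with PS80 (0.36, adjusted p = 0.000538). With PS80, 2 rose and 3 fell (in each direction no larger a share than among all genes), MYL12A rising (0.46, adjusted p = 2.30e-05) and MYLK3, a low-level myosin light chain kinase gene, falling from 3.46 to 1.73 CPM (-0.999, adjusted p = 0.00241). Between the emulsifiers 8 were higher and 1 lower with PS80 (42.1% and 5.26%, beside 18.0% and 17.2% of all genes). Leading them were MYL9 (0.67, adjusted p = 6.78e-09), MYH10 (0.41, adjusted p = 1.23e-05) and RHOB (-0.42, adjusted p = 4.48e-05).

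Genes of filament turnover and nucleation moved in both directions. Of 20 turnover genes, 4 were higher and 9 lower with PS20 (20.0% and 45.0%, beside 24.3% and 23.9% of all genes). LIMK1, the kinase that inactivates cofilin, rose (log2 0.56, adjusted p = 9.96e-08), as did the profilin PFN2 (0.54, adjusted p = 1.95e-06), and CFL1, cofilin itself, fell (-0.39, adjusted p = 2.40e-07). With PS80, 5 were higher and 4 lower (25.0% and 20.0%, beside 17.2% and 16.0% of all genes), with LIMK1 (0.63, adjusted p = 7.97e-08), PFN2 (0.37, adjusted p = 0.000476) and WDR1 (0.22, adjusted p = 0.00112) rising. Between the emulsifiers 8 were higher and 1 lower with PS80, with CFL1 at 0.33 (adjusted p = 6.07e-06), WDR1 at 0.27 (adjusted p = 0.000168) and CAPZB, a capping protein subunit, at 0.25 (adjusted p = 0.000212).

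Of 20 nucleation genes, 2 were higher and 8 lower with PS20, 3 higher and 2 lower with PS80 (15% and 10%, below the shares of all genes), and 6 higher and 1 lower with PS80 than with PS20. WASF1 fell from 29.8 to 14.8 CPM with PS20 (log2 -0.98, adjusted p = 2.15e-08) and to 21.3 CPM with PS80 (-0.48, adjusted p = 0.000392). The formin DIAPH1 (-0.39, adjusted p = 1.56e-07) and COBL (-0.41, adjusted p = 3.19e-06) fell with PS20, and CTTN, cortactin (0.27, adjusted p = 5.51e-05), and the formin FMNL2 (0.50, adjusted p = 0.000162) rose with PS80. CTTN (0.38, adjusted p = 4.91e-07), DIAPH1 (0.34, adjusted p = 2.34e-06) and WASF1 (0.50, adjusted p = 0.000321) were higher with PS80 than with PS20. The counts of CTTN are uncertain, since all its exon lengths recur in a scaffold gene.

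SRF, MRTF genes and their known targets outside the 9 members were tested for 20 of 21 genes. The factors themselves did not pass for PS80 against control: SRF was at 0.13 (adjusted p = 0.121), MRTFA at -0.01 (0.905) and MRTFB at -0.14 (0.156). MRTFB was lower with PS20 than in control (-0.37, adjusted p = 0.000221), while SRF (0.145) and MRTFA (0.588) did not pass there. MRTFB was higher with PS80 than with PS20 (0.24, adjusted p = 0.0143). With PS80, 9 were higher than control and, by edgeR, at an unadjusted p under 0.05 and by DESeq2, 0 were lower, with a median log2 fold change of 0.26. With PS20, 2 were higher and 5 lower (median -0.08). The 5 lower were 25.0% of the list, near the 23.9% of all genes. The 2 higher were a smaller share than the 24.3% of all genes. With PS80 against PS20, 14 were higher and 1 lower (median 0.34). ZYX, the focal adhesion protein zyxin, rose from 214.2 to 320.1 CPM with PS80 (0.58, adjusted p = 1.28e-07) and stood 0.54 above PS20 (adjusted p = 1.77e-07). The counts of ZYX are uncertain, since all its exon lengths recur in a scaffold gene. PDLIM7 also rose with PS80 (0.47, adjusted p = 1.78e-05). TLN1, talin, and VCL, vinculin, which link integrins to actin, fell with PS20 (-0.69, adjusted p = 3.52e-10, and -0.35, adjusted p = 7.25e-06) and were higher with PS80 than with PS20 (0.64, adjusted p = 4.11e-09, and 0.62, adjusted p = 3.82e-09). The integrin gene ITGA5 rose with both (0.57, adjusted p = 3.81e-06 for PS20, and 0.66, adjusted p = 1.40e-06 for PS80).

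**Figure D4:**
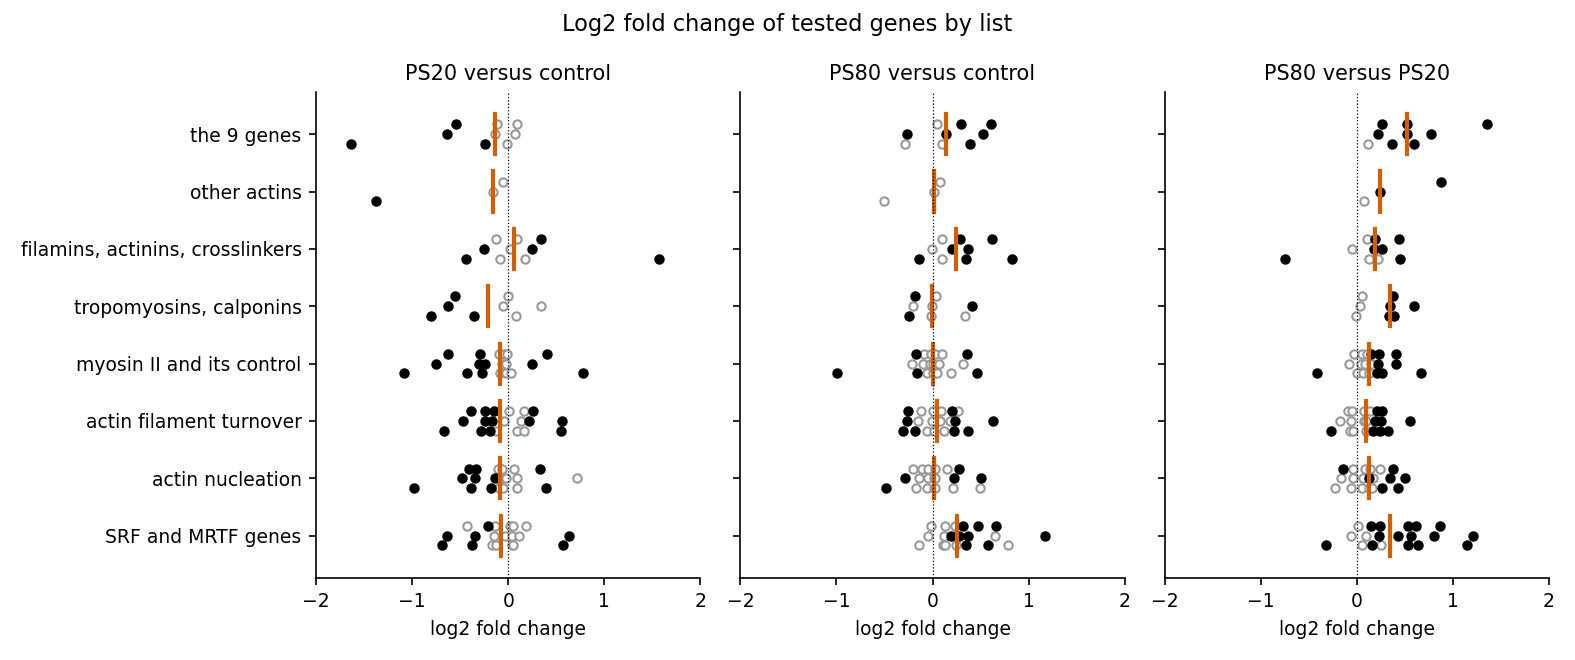
Log2 fold change of each tested gene in the 9 genes and the 7 other lists, by comparison, filled where the adjusted p was under 0.05, with a vertical bar at each list's median. The medians for PS80 against PS20 all lie above 0, at 0.52 for the 9 genes and 0.34 for the SRF and MRTF list.

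Patterns over the 15 libraries were compared by the root mean square (RMS) difference of centred log2 CPM, which is 0 for identical patterns, among 12130 named genes. The 3 members that varied most were TAGLN (SD 0.766), FLNA (0.359) and TPM4 (0.291). Closest to TAGLN were SLC1A3, a glutamate transporter gene (RMS 0.154), OLR1 (0.226) and UCA1, a long non-coding RNA (0.243). SLC1A3 read 225.3 ± 43.3 CPM in control, 81.0 ± 9.10 with PS20 and 209.6 ± 31.1 with PS80. Closest to FLNA were CSRP1, a LIM protein that binds actinin (0.113), BOP1 (0.137) and NUP210 (0.138), and closest to TPM4 were DHX15 (0.0486), WDR76 (0.0598) and TACC1 (0.0622). These are descriptions, over 15 points that fall in 3 groups and differ in depth.

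Markers of other cells were read because TAGLN and tropomyosins are also muscle and fibroblast genes. Of 12 markers of intestinal epithelium 10 were tested, and their summed level was 11161.6 to 12849.9 CPM in control, 9471.5 to 10173.5 CPM under PS20 and 11457.6 to 12003.7 CPM under PS80. EPCAM was at 971.8 ± 27.5 CPM and VIL1 at 801.5 ± 34.2 CPM in control, while CDX1 was at 0 in control and KRT20 at 0 throughout. With PS20, 4 of the 10 were lower than control (KRT8 by log2 -0.73, KRT18 -0.61, KRT19 -0.50 and VIL1 -0.29) and 3 were higher (FABP1 0.55, CDX2 0.37 and CDH1 0.12). With PS80, CDX2 alone of the 10 passed against control, at 0.38. Of 15 smooth muscle and fibroblast markers 6 were tested, summing to 196.2 to 208.5 CPM in control, 157.2 to 171.7 CPM under PS20 and 163.8 to 211.8 CPM under PS80. Defining genes of smooth muscle were at or near 0: group means were at most 0.00887 CPM for ACTA2, 0.771 for CNN1 and 0.407 for DES, and MYH11 was at 0. COL1A1 (96.4 ± 10.3 CPM in control) and PDGFRA (51.3 ± 3.37) carried most of that sum. With PS20, 3 of the 6 were lower than control (ACTG2 by log2 -1.38, PDGFRA -1.05 and PDGFRB -1.01), and COL1A1 (0.05), COL3A1 (-0.01) and LUM (0.28) did not pass. With PS80, PDGFRA (-0.36) and PDGFRB (-0.85) were lower and the other 4 did not pass. The part of these markers, epithelial ones included, in the fall of TAGLN, TPM1 and TPM4 was not tested. Of 8 endothelial and blood markers 2 were tested, with sums of 16.5 to 24.3 CPM in control, 26.1 to 30.1 CPM under PS20 and 27.4 to 30.7 CPM under PS80. CD14 was higher with PS20 (log2 0.49) and PECAM1 did not pass (0.37), and both were higher with PS80 (0.40 and 0.56). Marker counts are to be read beside all tested genes, of which 23.9% were lower and 24.3% higher with PS20. With PS80 these shares were 16.0% and 17.2%. Exon lengths of MYH11 and KRT20 largely recur in an annotated scaffold copy, so their 0 was not read as absence.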

How the data were processed

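The deposited tables held raw counts of reads per gene, 1 table a library. The authors counted with featureCounts, 2.0.0 in 11 libraries and 2.0.3 in PS80 replicates 1, 3, 4 and 5, on GENCODE 42, per the file headers, which list a minimum mapping quality of 10 and neither a strand nor a pair setting. An effect of that version cannot be told apart from PS80 in those 4 libraries. The submitters' processing notes name cutadapt, STAR 2.7.9a, GRCh38 and DESeq2 1.32.0, and the labels' protocols name polyadenylated RNA libraries.

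Symbols were matched for 62625 of 69215 genes (90.48%). Groups were compared with edgeR 4.0.16 in R 4.3.3 (filterByExpr, minimum count 10 and total 15; trimmed mean of M-values scaling; robust quasi-likelihood fit with 1 term per group over 15 libraries; Benjamini-Hochberg over 12769 genes). The common biological coefficient of variation was 8.91%. Log2 CPM used a prior count of 2. Ratios of counts per kb were compared by exact permutation tests in SciPy 1.17.1. DESeq2 1.42.0, other scaling, no filter, a replicate block, subsets of replicates and each library left out were the alternatives. The code was tested on simulated data. The fixed rule named all 9 members, from each list the passing genes with the 3 smallest p per comparison, and the 3 genes closest in pattern to a member, printed for the 3 members with the largest SD; 1 gene it named, with its ratio, is not reported here. Members and lists were chosen with earlier results of these data known.

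Replicate numbers were shared between groups. Deviations from group means of same-numbered PS80 and control libraries correlated across genes at 0.102 to 0.304, all over 0.1, so those numbers may mark pairs. The range was -0.0264 to 0.248 for PS20 with control and 0.0741 to 0.29 for PS80 with PS20. PS20 with control matched its own number best in 4 of 5 pairs, so pairing there was not settled either. The main test used no pairs.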

Additional observations from a re-analysis of the deposited data

How the results depend on the processing

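Of 531 results for the 9 genes under alternatives, 494 kept their direction and their side of the threshold, as did 1077 of 1121 for the other named genes. With replicates 1 and 2 alone, values turned for PS20 against control in ACTB (0.0592), FLNA (0.0388) and MYH9 (0.0869) and for PS80 against control in TAGLN (0.0527). With replicates 3 to 5 alone ACTN1 turned for PS20 (-0.0143), and with each library left out MYH9 for PS20 lay between -0.0540 and 0.00978, positive without control replicate 3, and with PS80 replicate 2 as the only PS80 library TPM4 turned for PS80 against control (-0.11). None of these passed the test under that alternative. The number of the 9 genes lower with PS80 than control was 0 with replicates 1 and 2 alone, 2 with replicates 3 to 5 alone (TAGLN and TPM1), and 1 to 2 with each library left out. Calls over all genes fell from 6150 to 3297 (PS20 against control), from 4243 to 2213 (PS80 against control) and from 4501 to 1612 (PS80 against PS20) with replicates 1 and 2 alone, which leaves 6 libraries. With PS80 replicate 2 as the only PS80 library, assumed to vary like the other groups, they were 2797 and 2375 in the PS80 comparisons. The cause of the other changes was not tested.

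With the replicate number as a block, calls over all genes were 6866, 5179 and 5451. In the PS80 comparison with control the block changed no call of the 9 genes. Elsewhere FLNA lost its PS20 call (adjusted p = 0.0505), while ACTN4 passed for PS20 (0.0393) and MYH9 for PS80 against PS20 (0.0347). Without robust estimation of the spread, chosen after seeing the data, calls were 6163, 4266 and 4527. Same-numbered libraries correlated best with their own number in 4 of 5 pairs for PS20 with control and in 3 of 5 in the other comparisons. Depth, at its lowest 4183096 counts, limits genes near the filter more than the 9 members.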
